A study of Arabidopsis thaliana with 9 samples.

Results

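The 10 genes described here are 9 immune WRKY transcription factor genes of Arabidopsis thaliana and the receptor-like kinase gene FRK1. They were chosen by name as the loci of WRKY18 (AT4G31800), WRKY40 (AT1G80840), WRKY60 (AT2G25000), WRKY46 (AT2G46400), WRKY53 (AT4G23810), WRKY54 (AT2G40750), WRKY70 (AT3G56400), WRKY38 (AT5G22570), WRKY62 (AT5G01900) and FRK1 (AT2G19190), 10 of the 33602 loci in the count table. All 10 had counts, and 9 passed the filter on low counts and were tested among 20668 genes. WRKY62 did not pass it. RNA was sequenced from whole seedlings of wild-type Col-0 plants and the mutant lines emb1579-1 and emb1579-3, both in the Col-0 background, in 3 libraries of each genotype that the series calls biological replicates. Seeds of every genotype were kept in the cold for 3 days on Murashige and Skoog medium of reduced strength and then grown for 6 days at 20 °C, with no pathogen or elicitor treatment named in the labels. Both mutant lines are named for EMB1579 (AT2G03150), the gene of a nuclear protein also known as RSA1.

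WRKY proteins bind the W-box, a DNA motif whose usual forms read TTGACC or TTGACT, and many WRKY genes are themselves induced when a plant detects a microbe. WRKY18, WRKY40 and WRKY60 belong to group IIa of the family, form homodimers and heterodimers, and act largely as repressors of defence genes. WRKY46, WRKY53, WRKY54, WRKY70, WRKY38 and WRKY62 belong to group III, much of which responds to the defence hormone salicylic acid. FRK1, the FLG22-induced receptor-like kinase, has leucine-rich repeats and is a standard reporter of the early response to bacterial flagellin.

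The stretches just before the annotated starts of 5 of the genes are shown because these genes carry the results below. FRK1 had the largest fold change against Col-0 among the 9 tested genes, and WRKY70 and WRKY54 were both higher in emb1579-3 than in the libraries labelled emb1579-1. WRKY40 fell in emb1579-3, where WRKY18 and WRKY60 rose. WRKY53 was called against Col-0 only in the libraries labelled emb1579-1, and its difference from its relatives was not tested. Each sequence holds the 250 bases before the gene's start on the gene's own strand, read from the RefSeq genome TAIR10.1 at chr2:8329945-8330194 (minus strand) for FRK1, chr4:12393983-12394232 (minus strand) for WRKY53, chr3:20910624-20910873 (minus strand) for WRKY70, chr2:17002529-17002778 (minus strand) for WRKY54 and chr1:30383311-30383560 (plus strand) for WRKY40. Capitals mark TTGACC or TTGACT on either strand, and TGACG on either strand. TGACG, the core bound by TGA bZIP factors, was added after the sequences had been seen.
FRK1: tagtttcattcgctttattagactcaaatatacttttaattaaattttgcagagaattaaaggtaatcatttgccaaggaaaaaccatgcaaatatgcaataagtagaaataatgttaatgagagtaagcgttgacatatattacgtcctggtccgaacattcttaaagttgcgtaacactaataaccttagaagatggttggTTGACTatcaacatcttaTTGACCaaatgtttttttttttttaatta
WRKY53: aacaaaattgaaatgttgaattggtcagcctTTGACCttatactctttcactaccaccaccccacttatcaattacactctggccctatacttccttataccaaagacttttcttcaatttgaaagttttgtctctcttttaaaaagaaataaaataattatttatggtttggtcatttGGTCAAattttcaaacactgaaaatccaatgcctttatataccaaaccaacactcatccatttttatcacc
WRKY70: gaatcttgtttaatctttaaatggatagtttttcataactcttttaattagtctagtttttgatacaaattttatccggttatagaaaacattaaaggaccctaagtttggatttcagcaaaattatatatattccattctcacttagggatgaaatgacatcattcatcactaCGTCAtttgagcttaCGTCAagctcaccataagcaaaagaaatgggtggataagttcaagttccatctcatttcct
WRKY54: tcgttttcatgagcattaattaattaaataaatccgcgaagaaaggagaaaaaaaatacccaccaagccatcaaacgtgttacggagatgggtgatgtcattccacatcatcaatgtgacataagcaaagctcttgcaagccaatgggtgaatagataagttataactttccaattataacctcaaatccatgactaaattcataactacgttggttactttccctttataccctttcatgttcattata
WRKY40: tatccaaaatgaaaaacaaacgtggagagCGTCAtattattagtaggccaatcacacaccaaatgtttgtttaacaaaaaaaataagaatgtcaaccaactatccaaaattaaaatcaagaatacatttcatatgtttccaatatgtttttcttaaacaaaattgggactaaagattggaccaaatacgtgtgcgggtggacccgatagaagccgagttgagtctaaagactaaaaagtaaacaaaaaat
FRK1 held TTGACT and TTGACC on its own strand, starting at positions -47 and -29 counted from the gene's start. WRKY53 held TTGACC on its own strand at position -219 and on the opposite strand at -71. In the window from 250 bases before to 50 bases after the start, TTGACC or TTGACT occurred at least once in 3 of the 10 genes, FRK1, WRKY53 and WRKY62, and in 32.4% of 27443 nuclear protein-coding genes. Each of those 3 genes held 2 matches, a number reached or passed by 7.7% of all promoters. Over the 1000 bases before the start, 8 of the 10 genes held a match, beside 67.3% of all promoters, with 7 matches in FRK1 and none in WRKY70 or WRKY38. WRKY70 held TGACG 2 times on the opposite strand, at positions -76 and -61, where 4.44% of all promoters held it 2 times or more. In that window TGACG occurred in 3 of the 10 genes, WRKY40, WRKY60 and WRKY70, beside 23.1% of all promoters. The W-box core TTGAC, not marked in the sequences, occurred there in 8 of the 10 genes, beside 50.5% of all promoters. WRKY54 held none of these motifs in the shorter window, and WRKY40 held 1 TGACG at position -221. Matches describe these letters and are not evidence of binding.

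Levels are given as CPM, the count relative to its library's total after scaling with edgeR's TMM factors, and a gene is called changed at a Benjamini-Hochberg adjusted p under 0.05 over all 20668 genes in edgeR's quasi-likelihood test. The library Col-0 replicate 3 held 1.18 M counts against 24.1 to 37.5 M in the other 8, correlated with none of them above 0.373 in log2 CPM, and was left out by the rule that chose the genes. Col-0 thus has n = 2 and each mutant line n = 3. Col-0 replicate 2 also differed from the rest, with counts for 4391 nuclear genes that no other of the 8 libraries counted, beside 21 to 30 such genes in each of the others. All tested members except WRKY40 were higher in it than in Col-0 replicate 1. The values of the called members without either library are given with them, for WRKY40 in part as a range. EMB1579 was at 48.6 and 48.9 CPM in Col-0, at 46.8, 48.9 and 47.7 CPM in the libraries labelled emb1579-1, and at 2.11, 1.08 and 1.13 CPM in emb1579-3. By this level, emb1579-1 as labelled and Col-0 were alike. The columns taken as emb1579-3 were matched to that line because the other columns' names were accounted for, and their prefix differs in its number from that in the labels. In RNA from whole seedlings, fewer cells of a type and less RNA per cell cannot be told apart.

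FRK1 was the member that changed most against Col-0. It was measured at 0.546 and 1.10 CPM in Col-0, at 4.48, 4.25 and 3.50 CPM in the libraries labelled emb1579-1, and at 4.43, 2.62 and 2.86 CPM in emb1579-3. All 6 mutant libraries lay above both Col-0 libraries. Over all genes tested, 21.8% had every library labelled emb1579-1 above both Col-0 libraries and 24.2% had every emb1579-3 library above them. The gene rose 4.83-fold in the libraries labelled emb1579-1 (log2 fold change 2.27, SE 0.29, adjusted p = 5.13e-05) and 3.93-fold in emb1579-3 (log2 1.97, SE 0.30, adjusted p = 0.000204). Between the lines the difference was -0.30 on the log2 scale (SE 0.22, adjusted p = 0.748). FRK1 was low in Col-0 and its Col-0 libraries differed by 0.93 on the log2 scale, so the size of the change depended on the control library: it was 2.88 and 2.58 in the lines without Col-0 replicate 2, and 1.90 and 1.60 without Col-0 replicate 1, each past the threshold. FRK1 (chr2:8326049-8329944, minus strand) overlaps the uncharacterized gene AT2G19180 on the opposite strand by 175 bases. AT2G19180 had means of 6.98 CPM in Col-0, 5.75 CPM in emb1579-1 as labelled and 5.93 CPM in emb1579-3 and was not called. No source used here gives the strand setting of the counting, so a share of either gene's counts may belong to the other.

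Within the IIa group, WRKY18 and WRKY60 rose in both lines. WRKY18 (chr4:15382777-15385100, plus strand) was at 6.84 and 8.27 CPM in Col-0, 15.2, 18.1 and 19.0 CPM in the libraries labelled emb1579-1, and 17.2, 12.8 and 16.5 CPM in emb1579-3. WRKY60 (chr2:10629662-10631413, plus strand) was at 2.57 and 3.89 CPM, then 6.90, 6.17 and 6.22 CPM, then 5.69, 5.52 and 5.32 CPM in the same order. For both genes every mutant library was above both Col-0 libraries, as for 21.8% and 24.2% of all genes in the lines. WRKY18 rose by 1.20 on the log2 scale (SE 0.14, adjusted p = 1.97e-05) in the libraries labelled emb1579-1 and by 1.04 (SE 0.14, adjusted p = 8.15e-05) in emb1579-3. WRKY60 rose by 0.98 (SE 0.17, adjusted p = 0.000417) and by 0.76 (SE 0.17, adjusted p = 0.00327). Leaving out Col-0 replicate 1 gave WRKY18 rises of 1.09 and 0.92 in the lines, and leaving out Col-0 replicate 2 gave 1.35 and 1.18, each past the threshold. WRKY60 depended more on the control library. Its rise in the libraries labelled emb1579-1 was 0.74 without Col-0 replicate 1 and 1.31 without Col-0 replicate 2, both past the threshold. In emb1579-3 it was 1.09 without Col-0 replicate 2, and without Col-0 replicate 1 the call was lost, at 0.51 with an adjusted p of 0.0568. Neither gene was called between the lines, where WRKY18 differed by -0.17 (SE 0.12, adjusted p = 0.734) and WRKY60 by -0.22 (SE 0.14, adjusted p = 0.691).

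WRKY40, their partner in heterodimers, was at 21.3 and 19.2 CPM in Col-0, 20.6, 20.4 and 22.7 CPM in the libraries labelled emb1579-1, and 11.8, 14.3 and 13.5 CPM in emb1579-3. The libraries labelled emb1579-1 overlapped Col-0, and every emb1579-3 library was below the other 5. Over all genes, 24.7% had every emb1579-3 library below both Col-0 libraries and 7.56% had every one below the libraries labelled emb1579-1. WRKY40 fell in emb1579-3 by 0.62 on the log2 scale against Col-0 (SE 0.10, adjusted p = 0.000299) and by 0.69 against the libraries labelled emb1579-1 (SE 0.09, adjusted p = 0.00063). Its difference from Col-0 in emb1579-3 was -0.53 without Col-0 replicate 1. It ranged from -0.71 to -0.53 over other settings of the fit, among them that without Col-0 replicate 2. Against Col-0 the libraries labelled emb1579-1 differed by 0.07 (SE 0.10, adjusted p = 0.702). By the unadjusted p between the lines, WRKY40 ranked 22 among 20668 genes. The CPM of WRKY40 was 3.12 and 2.32 times that of WRKY18 in the Col-0 libraries, 1.35, 1.13 and 1.19 times in the libraries labelled emb1579-1, and 0.684, 1.12 and 0.813 times in emb1579-3. Ratios of CPM between these genes are compared across libraries and do not rank the genes, which differ in length. WRKY40 (chr1:30383561-30385499, plus strand) overlaps AT1G80850, annotated as a DNA glycosylase superfamily gene, by 51 bases on the opposite strand. AT1G80850 was at means of 4.68, 4.36 and 4.31 CPM and was not called. Of 1129 stretches of 50 bases in the exons of WRKY40, 46 (4.07%) occur elsewhere in the nuclear genome, and none of those of the other 9 genes do.

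**Figure D1:**
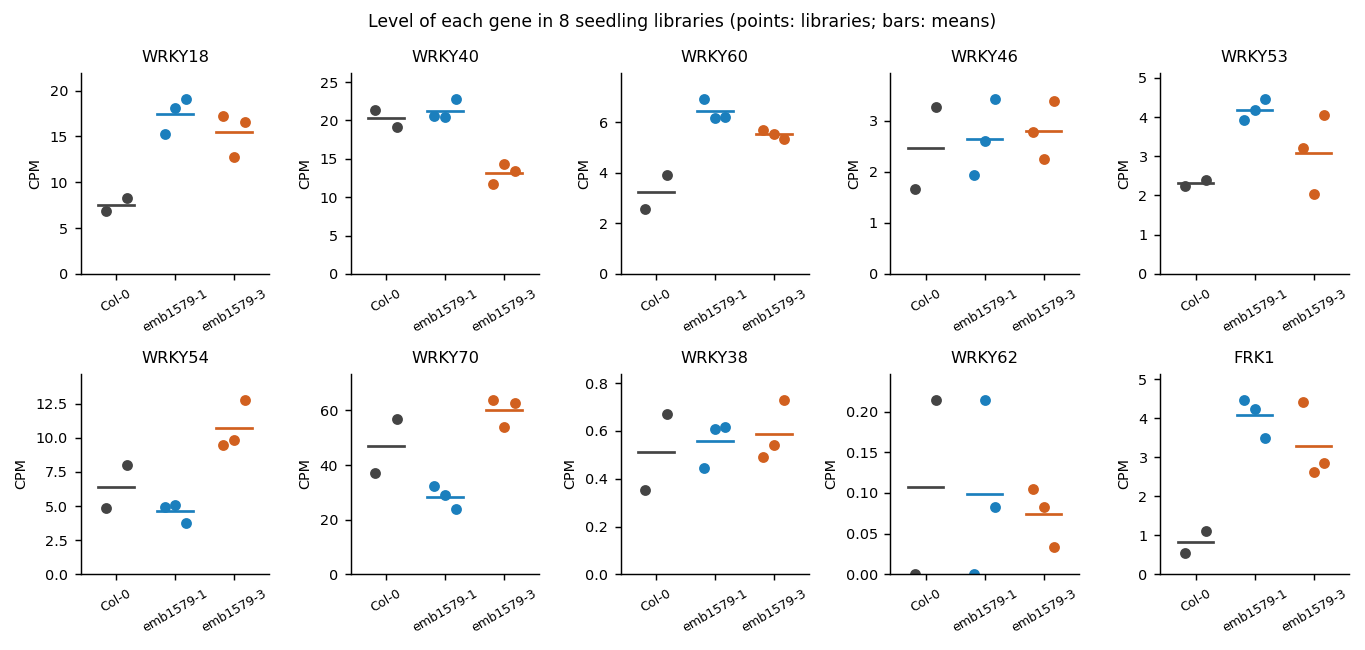
Level of each of the 10 genes in the 8 libraries used, in CPM on TMM-scaled totals, with points for libraries, bars for genotype means and a separate axis from 0 for each gene. FRK1, WRKY18 and WRKY60 are above both Col-0 libraries in all 6 mutant libraries, WRKY40 is lowest in the 3 emb1579-3 libraries, and WRKY54 and WRKY70 are lowest on average in the libraries labelled emb1579-1.

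WRKY54 and WRKY70, close relatives that restrain leaf senescence, were placed in the same order by genotype. WRKY70, a gene known for promoting salicylic acid responses over those to jasmonate, was at 37.2 and 56.9 CPM in Col-0, 32.4, 29.1 and 23.9 CPM in the libraries labelled emb1579-1, and 63.9, 54.1 and 62.5 CPM in emb1579-3. WRKY54 was at 4.85 and 7.97 CPM, then 4.96, 5.07 and 3.79 CPM, then 9.46, 9.84 and 12.8 CPM. For both genes every emb1579-3 library was above every library labelled emb1579-1, as for 7.43% of all genes. For WRKY70, the libraries labelled emb1579-1 were also below both Col-0 libraries, as for 22.9% of all genes, while the emb1579-3 values overlapped Col-0. For WRKY54, the emb1579-3 libraries were above both Col-0 libraries, as for 24.2% of all genes, while the libraries labelled emb1579-1 overlapped them.

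Between the lines, WRKY54 was higher in emb1579-3 by 1.21 on the log2 scale (SE 0.19, adjusted p = 0.00964) and WRKY70 by 1.08 (SE 0.17, adjusted p = 0.0424). They ranked 69 and 145 by p among 20668 genes. Against Col-0, WRKY70 fell by 0.73 in the libraries labelled emb1579-1 (SE 0.19, adjusted p = 0.0347), and in emb1579-3 its difference was 0.35 (SE 0.19, adjusted p = 0.253). WRKY54 rose by 0.73 in emb1579-3 (SE 0.20, adjusted p = 0.0229) and differed by -0.48 in the libraries labelled emb1579-1 (SE 0.21, adjusted p = 0.15). The Col-0 libraries themselves differed by 0.61 for WRKY70 and 0.71 for WRKY54 on the log2 scale, which placed these differences at the 92.8 and 94.2 percentiles of all genes tested. The fall of WRKY70 was 0.99 without Col-0 replicate 1 and 0.39, with an adjusted p of 0.0859, without Col-0 replicate 2. In emb1579-3 the difference of WRKY70 was called higher without Col-0 replicate 2, at 0.69 with an adjusted p of 0.00549, and it was 0.09 with an adjusted p of 0.727 without Col-0 replicate 1. The rise of WRKY54 in emb1579-3 was 1.13 without Col-0 replicate 2 and 0.44, with an adjusted p of 0.116, without Col-0 replicate 1. In the libraries labelled emb1579-1, WRKY54 was called lower without Col-0 replicate 1, at -0.77 with an adjusted p of 0.00578, and it was -0.08 with an adjusted p of 0.876 without Col-0 replicate 2. The difference of WRKY70 between the lines did not pass the threshold when any of the 6 mutant libraries was left out, with values from 0.97 to 1.18, and that of WRKY54 did not pass without replicate 2 (adjusted p = 0.0627) or replicate 3 (adjusted p = 0.0506) of the libraries labelled emb1579-1.

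The ratio of the CPM of WRKY54 to that of WRKY70 was 0.131 and 0.140 in Col-0, 0.153, 0.174 and 0.158 in the libraries labelled emb1579-1, and 0.148, 0.182 and 0.205 in emb1579-3. Both Col-0 values were below those of all 6 mutant libraries, and the lines overlapped. How often the ratios of other gene pairs separate in this way was not tested. WRKY60 was at 0.321 to 0.471 of the CPM of WRKY18 in the 8 libraries, with overlapping values in the 3 genotypes. The profiles of these pairs over the 8 libraries, as centred log2 CPM, were 0.196 apart for WRKY54 and WRKY70 and 0.213 apart for WRKY18 and WRKY60, as root mean square distances. WRKY46 and WRKY38 were the nearest pair of all, at 0.153, but neither was called in any comparison. The points of each pair share library and depth, and these distances describe the 8 libraries.

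**Figure D2:**
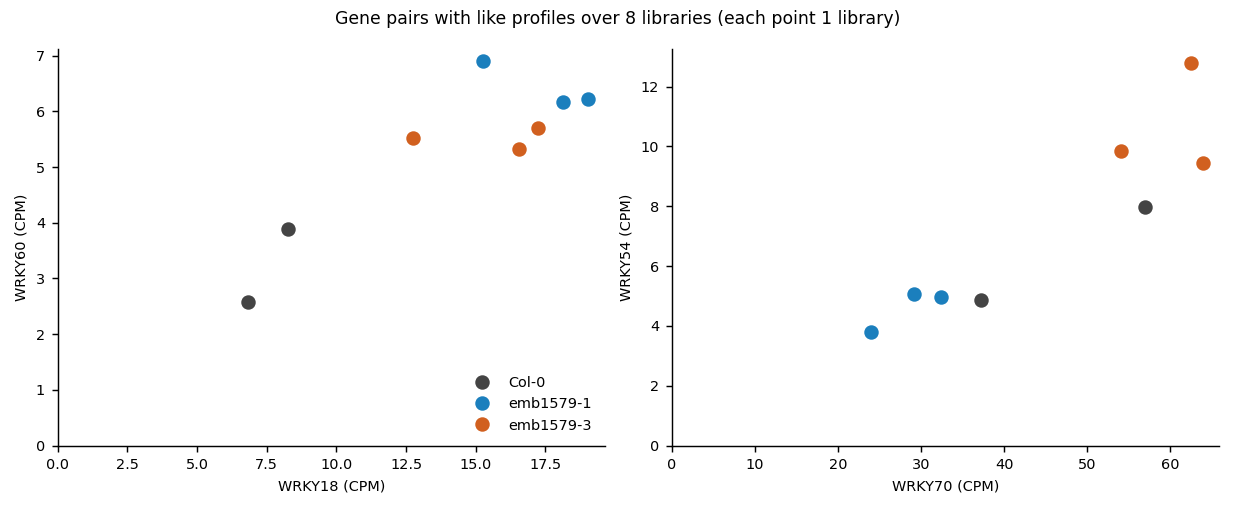
CPM of WRKY60 against WRKY18 (left) and of WRKY54 against WRKY70 (right), with 1 point for each of the 8 libraries and both axes starting at 0. On the left the Col-0 libraries are lowest for both genes, and on the right the 3 emb1579-3 libraries are above the 3 libraries labelled emb1579-1 on both axes.

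WRKY53, a WRKY factor that promotes leaf senescence, was at 2.25 and 2.39 CPM in Col-0, 3.91, 4.18 and 4.45 CPM in the libraries labelled emb1579-1, and 3.20, 2.04 and 4.05 CPM in emb1579-3. The libraries labelled emb1579-1 were all above Col-0, as for 21.8% of all genes, and those of emb1579-3 spread from below both Col-0 libraries to above them. It rose by 0.85 on the log2 scale in the libraries labelled emb1579-1 (SE 0.22, adjusted p = 0.0122) and differed by 0.43 in emb1579-3 (SE 0.23, adjusted p = 0.2). The rise was 0.82 without Col-0 replicate 1 (adjusted p = 0.0462). Without Col-0 replicate 2 it was 0.89 and no longer passed (adjusted p = 0.063), and a call in emb1579-3 appeared without its replicate 2 (0.64, adjusted p = 0.0314). The lines differed by -0.42 (SE 0.19, adjusted p = 0.518). WRKY53 (chr4:12392370-12393982, minus strand) overlaps 3xHMG-box2 (AT4G23800), a DNA-binding HMG-box gene, by 341 bases on the opposite strand. 3xHMG-box2 had means of 65.1 CPM in Col-0, 67.6 CPM in emb1579-1 as labelled and 77.6 CPM in emb1579-3 and was not called. Its level was far above that of WRKY53, and the part of its reads in the WRKY53 counts was not tested.

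WRKY46, which acts with WRKY53 and WRKY70 in basal resistance, was at 1.67 and 3.28 CPM in Col-0, 1.94, 2.61 and 3.42 CPM in the libraries labelled emb1579-1, and 2.78, 2.24 and 3.39 CPM in emb1579-3. The 3 genotypes overlapped, and the differences from Col-0 were 0.08 (SE 0.29, adjusted p = 0.89) and 0.17 (SE 0.29, adjusted p = 0.737). WRKY38, which limits basal defence together with WRKY62, was measured at 0.353 and 0.671 CPM in Col-0, 0.444, 0.607 and 0.618 CPM in the libraries labelled emb1579-1, and 0.492, 0.540 and 0.731 CPM in emb1579-3. It also overlapped in all genotypes, with differences of 0.10 (SE 0.43, adjusted p = 0.911) and 0.18 (SE 0.42, adjusted p = 0.815). WRKY62 had 0 and 8 counts in Col-0, 0, 6 and 2 counts in the libraries labelled emb1579-1, and 3, 2 and 1 counts in emb1579-3. Differences in WRKY62 were not detectable at this depth, and a fit with no filter on low counts gave log2 differences of -0.09 (SE 2.09), -0.51 (SE 2.097) and -0.42 (SE 1.94) in the 3 comparisons.

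**Figure D3:**
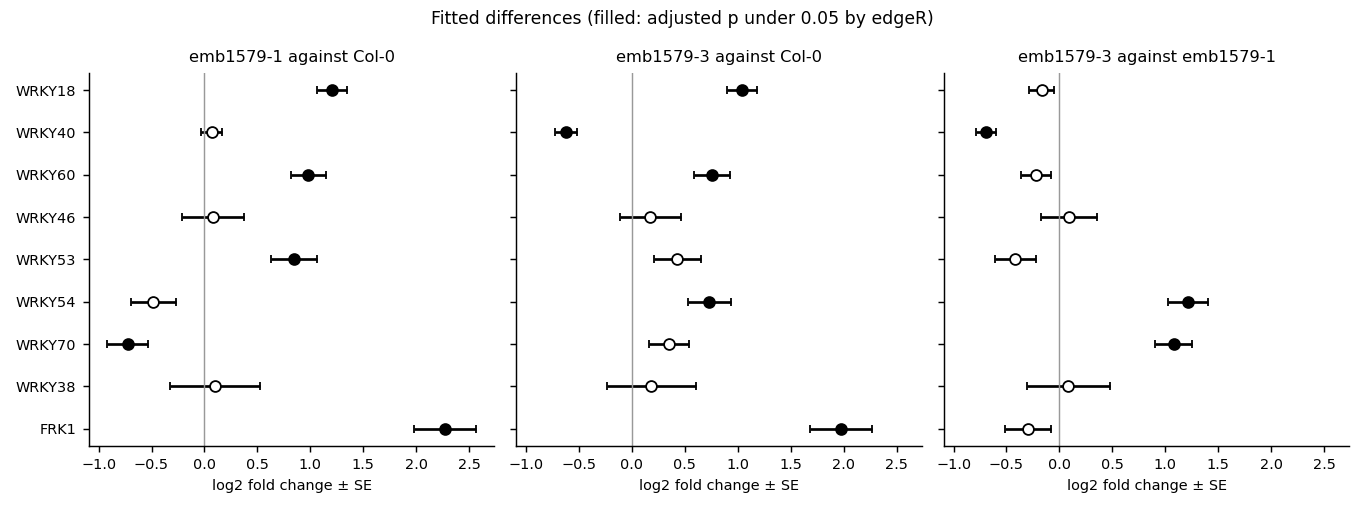
Log2 fold change with its standard error for the 9 tested genes in 3 comparisons by edgeR, filled where the adjusted p is under 0.05. FRK1 has the highest values against Col-0 at 2.27 and 1.97, and WRKY40 at -0.69 is set against WRKY54 at 1.21 and WRKY70 at 1.08 between the lines.

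In the libraries labelled emb1579-1, 4 of the 9 tested members rose, 1 fell and 4 were not called against Col-0, where 17.8% of all genes tested were called, 8.27% higher and 9.54% lower. In emb1579-3, 4 rose, 1 fell and 4 were not called, beside 20.3% of all genes, 9.95% higher and 10.3% lower. Both comparisons use the same Col-0 libraries and are not independent of each other. The median log2 fold change of the members was 0.10 in the first comparison and 0.43 in the second, beside medians of 0.00 and -0.00 over all genes. Between the lines 2 members were higher in emb1579-3, 1 was lower and 6 were not called, where 0.818% of all genes were called, 86 higher and 83 lower. The 3 called members were WRKY54, WRKY70 and WRKY40. Values of all 6 mutant libraries enter this comparison and those of Col-0 do not, apart from the shared estimate of the spread.

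**Figure D4:**
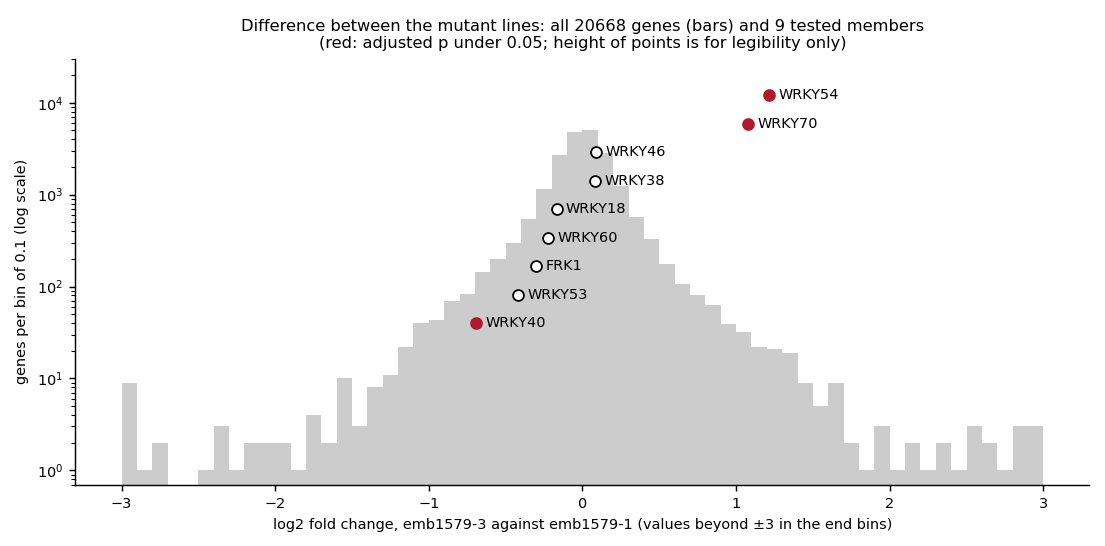
Log2 fold change of emb1579-3 against the libraries labelled emb1579-1, as a histogram of all genes tested (bars, log count axis) with the 9 tested members as points placed at arbitrary heights. WRKY54 at 1.21 and WRKY70 at 1.08 lie in the upper tail, WRKY40 at -0.69 in the lower, and the other 6 members are between -0.42 and 0.09.

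Levels of different genes were compared per kilobase of exon, where WRKY70 was highest and WRKY62 lowest in every genotype. In Col-0, WRKY70 had the highest mean at 32.0 CPM per kb, followed by WRKY40 at 15.3, WRKY54 at 4.48, WRKY18 at 3.73, WRKY60 at 2.04, WRKY46 at 1.83, WRKY53 at 1.53, WRKY38 at 0.392, FRK1 at 0.305 and WRKY62 at 0.0990. The Col-0 libraries of WRKY54 and WRKY18, of WRKY60 and WRKY46, of WRKY46 and WRKY53, and of WRKY38 and FRK1 overlapped on this scale. In the libraries labelled emb1579-1, WRKY70 at 19.4 and WRKY40 at 16.04 CPM per kb overlapped, WRKY18 was at 8.62, WRKY60 at 4.06 and WRKY54 at 3.22, and FRK1 at 1.51 was above WRKY38 at 0.426 with no overlap. WRKY54 overlapped WRKY53 at 2.76 there, and FRK1 overlapped WRKY46 at 1.96. In emb1579-3, WRKY70 was at 40.9, WRKY40 at 9.94, WRKY18 at 7.65 and WRKY54 at 7.47 CPM per kb, where the libraries of WRKY54 overlapped those of WRKY18 and of WRKY40. WRKY60 was at 3.48, WRKY46 at 2.07 and WRKY53 at 2.04 CPM per kb in emb1579-3, the last pair overlapping, and FRK1 was at 1.22, overlapping WRKY53.

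For each tested member, the nearest other genes were looked for among 7505 candidates by the root mean square distance between centred log2 CPM profiles over the 8 libraries. Because these genes were chosen by their values in the same libraries, their differences and adjusted p-values follow from that choice. They are given as description and are no separate support for the changes of the members. The nearest to WRKY18 was AIL6, an AINTEGUMENTA-like factor, at a distance of 0.126. The nearest to WRKY60 was AIG2, a gene named for its induction by a bacterial effector, at 0.134, with means of 6.76 CPM in Col-0, 15.0 CPM in emb1579-1 as labelled and 14.1 CPM in emb1579-3. The nearest to WRKY40 were BCAT-2, a branched-chain amino acid aminotransferase gene, and HSPRO2, the second at a distance of 0.110. HSPRO2 was at means of 192, 177 and 121 CPM, a fall of 0.55 on the log2 scale between the lines (adjusted p = 0.00271). PCC1, a pathogen-responsive gene under circadian control, was nearest to WRKY54 at 0.213 and second nearest to WRKY70 at 0.256. PCC1 was at means of 6.82, 4.61 and 12.6 CPM and was higher in emb1579-3 than in the libraries labelled emb1579-1 by 1.45 (adjusted p = 0.00387). SARD1, a transcription factor gene that drives salicylic acid synthesis, came next to WRKY54 at 0.226, with means of 2.38, 1.77 and 4.49 CPM and a difference between the lines of 1.36 (adjusted p = 0.101). RK3 was nearest to WRKY70 at 0.218. The nearest to FRK1 were ACS7, an ethylene synthesis gene, at 0.202 and GAD4, a glutamate decarboxylase gene, at 0.235. ACS7 rose by 2.28 and 2.31 in the lines, and GAD4 by 2.30 and 1.87. ST2B came second for WRKY18 and MIOX1 for WRKY60. For the other members the nearest were LSH4 and JAZ5 to WRKY53, RIP4 and CRF5 to WRKY46, and KNAT1 and PIP5K4 to WRKY38.

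The rest of the WRKY family was described from the 59 other WRKY genes of the annotation, of which 47 were tested. In the libraries labelled emb1579-1, 4 rose and 10 fell, with a median log2 fold change of -0.10. In emb1579-3, 1 rose and 12 fell, with a median of -0.15. These are 29.8% and 27.7% of the 47, beside 17.8% and 20.3% of all genes, with all 8 libraries in the fit. List counts without a Col-0 library, here and below, come from fits with 1 Col-0 library. Over all genes, calls in those fits shifted towards falls without Col-0 replicate 1 and were fewer without Col-0 replicate 2. Such list counts are therefore not to be set beside the shares from 8 libraries. Between the lines edgeR called none of the 47, 9 had an unadjusted p under 0.05 and DESeq2 called 1. At an unadjusted edgeR p of 0.0461 in that comparison, WRKY53 ranked 1839 among 20668 genes, so many genes had such p-values. The number of all genes that DESeq2 called is given further below. Without Col-0 replicate 1, 5 rose and 6 fell of 50 tested, then 1 rose and 6 fell, and without Col-0 replicate 2, 3 rose and 6 fell, then 1 rose and 8 fell. Among the 22 other defence WRKY genes listed, WRKY48, a repressor of basal defence, rose by 1.09 (adjusted p = 0.000368) and 0.91 (adjusted p = 0.00167) in the lines. WRKY17, another repressor of basal defence, fell by 0.61 and 0.53, and WRKY31 fell by 1.30 and 1.07. With Col-0 replicate 1 left out, WRKY31 was no longer called (adjusted p = 0.0529 and 0.147). Of the 7 other group III genes, WRKY41 and WRKY30 were tested and neither was called by edgeR or DESeq2. At an unadjusted p under 0.05 there were 1, 0 and 1 in the 3 comparisons. In the first of these, WRKY54 at an unadjusted edgeR p of 0.0434 ranked 5961 among 20668 genes.

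FRK1 belongs to a family of leucine-rich repeat kinases, of which 16 of the 23 others listed were tested. In the libraries labelled emb1579-1, 8 of them fell and 2 rose, with a median of -0.72, and in emb1579-3, 7 fell and none rose, with a median of -0.88, or 62.5% and 43.8% called beside 17.8% and 20.3% of all genes. Between the lines edgeR called none of the 16, 6 had an unadjusted p under 0.05 and DESeq2 called 2. As for the WRKY family, many of all genes had such unadjusted p-values. Without Col-0 replicate 2, 8 and 7 of 16 fell and 2 rose in each line. Without Col-0 replicate 1 all 23 were tested, because the added genes passed the filter only with Col-0 replicate 2 as the sole Col-0 library. Their falls follow largely from that filter, so counts in that setting are not given. The kinase genes AT3G46370, AT1G51830 and AT2G28960 fell by 2.14, 1.52 and 1.39 in the libraries labelled emb1579-1, and emb1579-3 showed log2 changes of -2.11, -1.39 and -1.30, while FRK1 rose by 2.27 and 1.97. AT1G51860 fell by 0.84 and 1.21.

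Of 19 pattern receptor and signalling genes, 4 rose and 1 fell in the libraries labelled emb1579-1, against 2 and 1 in emb1579-3. These are 26.3% and 15.8% of the list, beside 17.8% and 20.3% of all genes, so in emb1579-3 the share was below that of all genes. Leaving out Col-0 replicate 1 gave the same counts, and leaving out Col-0 replicate 2 gave 3 and 0, then 2 and 0. The NADPH oxidase gene RBOHD rose by 0.78 and 0.84 and the kinase gene MPK3 by 0.30 and 0.27, while the chitin receptor gene CERK1 fell by 0.34 and 0.32. Without Col-0 replicate 2 the calls of CERK1 (adjusted p = 0.173 and 0.178) and of MPK3 (adjusted p = 0.264 and 0.341) were lost in both lines. FLS2, the flagellin receptor gene, rose by 0.81 in the libraries labelled emb1579-1 (adjusted p = 0.000101), differed by 0.27 in emb1579-3 (adjusted p = 0.131), and was lower in emb1579-3 between the lines by -0.55 (adjusted p = 0.0142). Of 12 genes induced in pattern-triggered responses, 1 rose and 3 fell in the libraries labelled emb1579-1, and 3 rose and 2 fell in emb1579-3, or 33.3% and 41.7% of them. Without Col-0 replicate 1 it was 1 up and 2 down, then 2 up and 1 down, and without Col-0 replicate 2 none up and 1 down, then 2 up and 2 down. NHL10, like FRK1 a reporter of the flagellin response, fell by 2.15 (SE 0.65) and 2.59 (SE 0.67). Its means were low, at 0.82 CPM in Col-0, 0.187 CPM in emb1579-1 as labelled and 0.136 CPM in emb1579-3. It passed the filter on low counts through its Col-0 libraries. The ubiquitin ligase gene PUB22 fell by 0.46 and 0.59, while MYB51, a regulator of indole glucosinolates, rose by 0.64 and 0.59. Without Col-0 replicate 2 both calls of NHL10 (adjusted p = 0.154 and 0.0766) and of MYB51 (adjusted p = 0.0505 and 0.0690) were lost. PUB22 lost its call in emb1579-1 as labelled without either Col-0 library (adjusted p = 0.179 and 0.0794) and in emb1579-3 without Col-0 replicate 1 (adjusted p = 0.0623).

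Of 22 genes of salicylic acid synthesis and response, 3 rose and 5 fell in the libraries labelled emb1579-1, or 36.4% of them. In emb1579-3, 2 rose and 2 fell, or 18.2%. Over all genes 17.8% and 20.3% were called, the shares to set beside the counts from 8 libraries for this list and those that follow. They do not apply to the counts without a Col-0 library, where the calls over all genes shifted as well. When Col-0 replicate 1 was left out, 1 rose and 6 fell, then 1 rose and 4 fell. Leaving out Col-0 replicate 2 instead gave 4 that rose and 3 that fell, then 3 that rose and none that fell. The synthesis gene ICS1 rose by 0.56 and 0.40 and the signalling gene SAG101 by 0.64 and 0.46, while DMR6, a salicylic acid hydroxylase gene, fell by 0.84 and 0.46. With Col-0 replicate 1 left out, ICS1 was called in neither line (adjusted p = 0.0908 and 0.348). Without Col-0 replicate 2, SAG101 (adjusted p = 0.114) and DMR6 (adjusted p = 0.216) were no longer called in emb1579-3. Of the 13 tested genes of proteins known to bind or control these WRKY factors, 2 rose and none fell in the libraries labelled emb1579-1, and 2 rose and 1 fell in emb1579-3, or 15.4% and 23.1%. SIB2 rose by 0.83 and 0.81. BES1, a brassinosteroid factor, rose by 0.32 in the libraries labelled emb1579-1 and differed by 0.17 in emb1579-3 (adjusted p = 0.194). With Col-0 replicate 2 left out, BES1 was called in neither (adjusted p = 0.195 in emb1579-1 as labelled), and the histone deacetylase gene HDA19, a partner of WRKY38 and WRKY62, was not called. Of 10 tested senescence genes, 2 rose and 2 fell in the libraries labelled emb1579-1 and 2 rose and 3 fell in emb1579-3, or 40% and 50%. Without Col-0 replicate 1 it was 3 up and 2 down, then 0 up and 2 down, and without Col-0 replicate 2 it was 1 up and 2 down, then 0 up and 3 down. The senescence factor NAC092 rose by 1.34 and 1.05, where the call in emb1579-3 was lost without either Col-0 library (adjusted p = 0.112 and 0.0934), and the chlorophyll breakdown gene NYC1 fell by 0.76 and 1.16. Of 18 genes of the fast response to touch, wounding and elicitors, 3 rose and 3 fell, then 1 rose and 2 fell, or 33.3% and 16.7%. Without Col-0 replicate 1 it was 3 up and 4 down, then 1 up and 2 down, and without Col-0 replicate 2 it was 3 up and 0 down, then 0 up and 1 down. In that list CNI1 rose by 0.64 and 0.40, and DREB1A fell by 0.77 and 0.77. Without Col-0 replicate 2, CNI1 lost its call in emb1579-3 (adjusted p = 0.0748) and DREB1A in both lines (adjusted p = 0.0747 and 0.0647). Over these immunity lists, outside the members, 134 of 149 genes were tested between the lines, 3 were higher in emb1579-3 and 6 were lower. These are 9 called of 134, beside 0.818% of all genes called between the lines. Of the genes named beside the members, AIL6, BCAT-2, SARD1, GAD4, PIP5K4, WRKY41, FLS2, MPK3, SIB2, BES1, DREB1A, PYK10 and CASP1 overlap a gene on the opposite strand. Their values are uncertain for that reason.

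**Figure D5:**
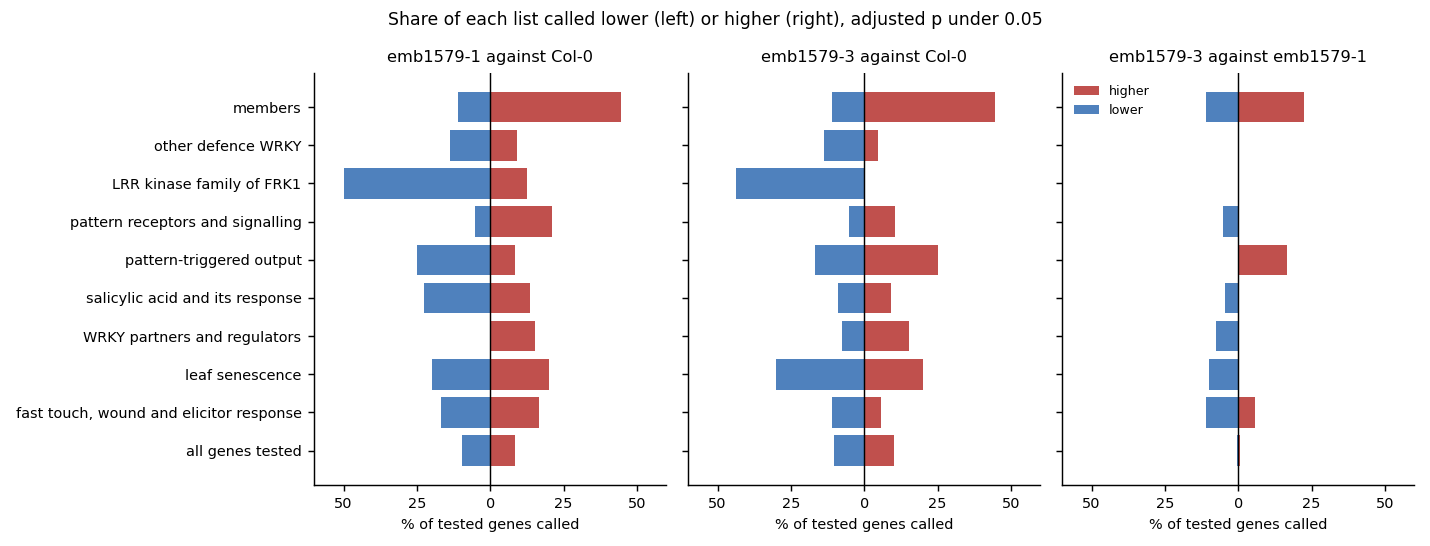
Percent of tested genes called lower (left of 0) and higher (right of 0) for the members, 8 other lists and all genes, in 3 comparisons by edgeR at an adjusted p under 0.05. The members have 4 of 9 higher in each comparison with Col-0, the kinase family of FRK1 has 8 and 7 of 16 lower, and the other defence WRKY genes have none called between the lines by edgeR.

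Markers of shoot and root were present in all 8 libraries. The summed level of 5 shoot markers was 13497 to 16268 CPM in Col-0, 12818 to 14720 in the libraries labelled emb1579-1 and 12970 to 14417 in emb1579-3. The sum of 7 root markers was 1162 to 1402 CPM in Col-0, 632 to 819 in the libraries labelled emb1579-1 and 546 to 757 in emb1579-3. The shoot sums of each line overlapped Col-0. The root sums were below Col-0 in both lines, but most of each was PYK10, a beta-glucosidase gene, at 1145 to 1385 CPM in Col-0, 619 to 801 in emb1579-1 as labelled and 531 to 742 in emb1579-3. Without PYK10 the sum of the other 6 markers was 16.7 to 17.1 CPM in Col-0, 12.6 to 17.5 in emb1579-1 as labelled and 13.0 to 15.7 in emb1579-3. Of the 7 root markers, PYK10 and CASP1 fell in both lines and the other 5 were not called, and the median log2 fold changes were 0.12 and -0.01. NRT2.1 was called higher in both lines without Col-0 replicate 2, at 1.78 and 1.80. The part of these levels in the differences of the members from Col-0 was not tested.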

How the data were processed

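RNA-seq was measured in 9 libraries of 3 genotypes. The authors deposited 1 table of raw counts per locus. FastQC, HISAT2, Cufflinks, Cuffdiff and the build TAIR10 are named in the submitters' processing notes. The counting tool, its strand setting and its treatment of shared reads were not given in the sources used here. Gene names, positions, overlaps and promoter sequences came from the RefSeq annotation and genome TAIR10.1, which matched 32835 of 33602 loci. The table columns of Col-0 and emb1579-1 were matched to samples by name. Those of emb1579-3 were assigned to that genotype only, because the other names were accounted for, and their replicate numbers were read from the column names.

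The members and gene lists were chosen with earlier results of these data known. Genotypes were compared with edgeR 4.0.16 in R 4.3.3, with TMM factors, its expression filter by genotype, robust dispersions and quasi-likelihood tests over 8 libraries in 1 fit with genotype as the only term. The adjusted p-values follow Benjamini and Hochberg over 20668 genes, and 5 residual degrees of freedom were left. The common biological coefficient of variation was 0.0904. Replicates differed by more than sampling noise. The p-values measure the spread between these samples. The exon length behind CPM per kb joins all annotated exons of a gene.

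Genes named beside the members overlap a member, are the 2 nearest by profile that have a symbol and average 2 CPM or more, or are the 4 of each list with the smallest larger adjusted p against Col-0. Profiles used log2 CPM with a prior count of 2. Alternatives were DESeq2 1.42.0, other scaling factors, nuclear genes only, other filters, a replicate block, all 9 libraries and leaving out each library. List counts and values of named genes without either Col-0 library were added after seeing the data. Protein sequences were not used here. The fitting code was tested on simulated data with known changes.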

Additional observations from a re-analysis of the deposited data

Results flagged for a closer look

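WRKY40, WRKY54 and WRKY70 were set apart because their responses to the 2 lines differed by a direct test. The log2 fold change of emb1579-3 against the libraries labelled emb1579-1 was -0.69 for WRKY40, 1.21 for WRKY54 and 1.08 for WRKY70, with all 3 emb1579-3 libraries on 1 side of all 3 libraries labelled emb1579-1 in each case. Over all genes tested, 7.43% had every emb1579-3 library above the libraries labelled emb1579-1 and 7.56% had every one below them.

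WRKY53 was set apart by its value in Col-0 replicate 3, the library outside all comparisons. It had 149 counts there, or 126 CPM (95% exact Poisson interval 107 to 148, counting error only), against at most 2.39 CPM in the other Col-0 libraries. CPM in Col-0 replicate 3 was taken on its raw total, without the TMM scaling used for the other libraries. The overlapping gene 3xHMG-box2 had 19 counts there, or 16.1 CPM, against up to 66.1 CPM in those libraries. The other 9 members had 0 to 11 counts each in Col-0 replicate 3.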

How the results depend on the processing

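With all 9 libraries, 0 members were called in each comparison, and 96, 134 and 0 of all genes were called for emb1579-1 against Col-0, emb1579-3 against Col-0 and between the lines. WRKY53 then turned to -4.84 and -5.27 against Col-0, WRKY46 to -0.15 and -0.068, WRKY38 to -0.24 and -0.15, and WRKY40 to -0.046 in the libraries labelled emb1579-1. A floor of 10 CPM in 3 libraries tested fewer genes, and among the members only WRKY18, WRKY40 and WRKY70. Of these, 2 were called in each comparison with Col-0, beside 2156 and 2490 of all genes. Between the lines 104 of all genes were called with that floor. Between the lines, no filter gave 569 and DESeq2 365 of all genes. Leaving out 1 library gave 3 to 6 members in each comparison with Col-0, with 3 in the libraries labelled emb1579-1 without Col-0 replicate 2 and 3 in emb1579-3 without Col-0 replicate 1. Between the lines it gave 1 to 3 members, with 1 without replicate 2 or replicate 3 of the libraries labelled emb1579-1, and 62 to 350 of all genes. Members that were not called changed sign: WRKY40 ranged from -0.013 to 0.16, WRKY46 from -0.29 to 0.66 and WRKY38 from -0.25 to 0.64 in the libraries labelled emb1579-1. WRKY46 ranged from -0.20 to 0.75 and WRKY38 from -0.17 to 0.73 in emb1579-3, and between the lines they ranged from -0.086 to 0.31 and from -0.12 to 0.20. The cause of these shifts was not tested.

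With the replicate block, 4, 5 and 2 members were called, given here without the share of all genes called in that fit. WRKY70 lost its call in the libraries labelled emb1579-1 (adjusted p = 0.183) and between the lines (adjusted p = 0.224), and WRKY46 at -0.078 and WRKY38 at -0.0027 changed sign in the libraries labelled emb1579-1. Same-numbered libraries correlated at -0.107 to 0.116 in their deviations, so the numbers were not taken to pair them. WRKY70 between the lines also lost its call with upper-quartile factors (adjusted p = 0.063). Its call in the libraries labelled emb1579-1 was lost without replicate 2 or 3 of them, or replicate 1 or 3 of emb1579-3. With no filter, WRKY54 was called lower in the libraries labelled emb1579-1 (-0.46) and WRKY70 higher in emb1579-3 (0.37). WRKY18 and FRK1 against Col-0, and WRKY40 in emb1579-3, kept their calls in every alternative that tested them except that with all 9 libraries.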

Other observations

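WRKY41, a group III gene outside the members, lies next to an HMG-box gene as WRKY53 does. WRKY41 (chr4:6759098-6760794, plus strand, TAIR10.1) overlaps 3xHMG-box1 (chr4:6760278-6763499, minus strand) by 517 bases, and WRKY53 overlaps 3xHMG-box2 by 341 bases, on opposite strands in both cases. In Col-0 replicates 1 and 2, WRKY41 had 13 and 20 counts and 3xHMG-box1 had 292 and 348. In Col-0 replicate 3, the library outside the comparisons, WRKY41 had 51 counts, or 43.2 CPM on the raw total, and 3xHMG-box1 had 0. In each pair the WRKY gene had the higher count in that library and the HMG-box gene in the other 8. WRKY41 was at 0.161, 0.250 and 0.288 CPM in the libraries labelled emb1579-1 and at 0.598, 0.540 and 0.598 CPM in emb1579-3, without overlap, and the difference of 1.30 on the log2 scale (SE 0.44) did not pass edgeR's test (adjusted p = 0.282).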
